A study of Mus musculus with 12 samples.

Results

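Apcdd1 and 38 other genes of the Wnt pathway were followed in blood monocytes of mice that lack TRIM33 in myeloid cells, to ask whether the high Apcdd1 of these cells comes with a wider change in the pathway. Apcdd1 was listed because it had been found higher in the TRIM33 arrays of this same comparison. The other genes were listed by their place in the pathway, with results of these arrays already known. Of the 39 listed genes 38 were measured, among 23279 genes in all. Tcf7 was not analysed here.

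The arrays measured RNA from inflammatory monocytes of the blood, sorted as CD11b+ CD115+ cells with high Ly6C, from mice of 6 to 8 weeks. There were 6 arrays of genotype TRIM33 and 6 of genotype WT, all on the strain C57BL/6 LyzCre, in which a lysozyme promoter drives Cre recombinase in myeloid cells. The sources used here do not say whether the WT mice also carry Cre. The titles call 2 arrays of each genotype mixes and the other 4 not. Since no label ties an array to an animal of its own, p-values measure the spread between arrays, which may be partly technical.

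Wnt proteins are secreted ligands that bind Frizzled receptors together with the co-receptors LRP5 and LRP6. Without a ligand, a complex of APC, Axin, GSK3 and casein kinase marks beta-catenin for destruction. With a ligand, Dishevelled disables that complex, and beta-catenin enters the nucleus and joins TCF and LEF factors to switch on target genes, several of which feed back to damp the signal. APCDD1 is a membrane glycoprotein that binds Wnt and LRP5 and blocks signalling at the cell surface, and its gene is itself a known target of beta-catenin. In blood cells the pathway is best known from T cell development and from stem and progenitor cells.

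On the log2 scale Trim33 read 6.06 to 6.23 in TRIM33 arrays and 6.81 to 7.05 in WT arrays. The difference was -0.79 (SE 0.067), or 0.578-fold. The values left in TRIM33 arrays lay above the array medians of 4.16 to 4.25, and their source was not tested. Clustering over all features split the 12 arrays into 2 sets of 6, each with 3 TRIM33 and 3 WT arrays: a set with Xist at 9.01 to 10.2 (the Xist set) and a set with Xist at 3.36 to 3.64 (the Y set). These sets are not groups of the study, and all 4 arrays titled as mixes fell in the Y set. The mean of 15 cell cycle markers ranged over 9.33 to 9.42 in the former and 4.78 to 5.73 in the latter, and that of 11 progenitor markers 7.16 to 7.38 and 4.62 to 5.16. Ly6c2, which encodes the antigen of the sort, lay at 12.2 to 12.4 and at 12.3 to 12.5, and the mean of 8 monocyte markers 10.2 to 10.5 and 10.8 to 11.1. Other lists parted the sets too, with no overlap. In the Xist and the Y set respectively, the mean of 12 T cell markers was 3.64 to 3.86 and 4.09 to 4.58, that of 5 platelet markers 3.90 to 4.06 and 4.99 to 6.49, and that of 10 neutrophil markers 6.25 to 6.83 and 5.08 to 6.11. None of the marker lists held a gene past the threshold between genotypes. All 6 natural killer cell markers were lower, beside 55% of all genes, with a list mean of 3.34 to 4.01 in TRIM33 and 3.73 to 4.24 in WT arrays. These means lay near or below the array medians of 4.16 to 4.25. The part of any of these cells in the values below was not tested, and in bulk samples fewer cells of a type and less RNA per cell cannot be told apart.

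Apcdd1 was far higher in the TRIM33 arrays of both sets. In the Xist set the WT arrays read 4.70, 4.89 and 4.80 on the log2 scale and the TRIM33 arrays 7.37, 6.96 and 7.20. In the Y set the WT arrays read 5.07, 5.24 and 5.31 and the TRIM33 arrays 8.87, 8.74 and 8.82. The genotypes did not overlap, and within each genotype every Y set array lay above every Xist set array. The mean went from 5.0 ± 0.247 in WT to 8.00 ± 0.904 in TRIM33 arrays (SD, n = 6), a difference of 2.99 (SE 0.341, or 0.183 once the array set was fitted as a block) or 7.97-fold, the third largest rise of 23279 genes. Because Apcdd1 was chosen on this comparison, these values are a description and carry no test.

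The size of the Apcdd1 difference was not the same number in both sets. It was 3.61 on the log2 scale in the Y set (SE 0.117) and 2.38 in the Xist set (SE 0.144), so that the Y set exceeded the Xist set by 1.22 (SE 0.181). Apcdd1 was chosen on these arrays and the sets were found by clustering them, so this gap is a description and carries no test. In a limma fit of genotype, array set and their interaction 0.00430% of all genes passed the threshold of 0.05 after adjustment. Of the other Wnt genes, 0 of the 37 listed and 0 of the 125 further ones described below were among them. Apcdd1 is left out of that count, which says nothing about its gap. TRIM33 replicate 2 had the highest means of its set for neutrophil (6.11), cell cycle (5.73) and progenitor (5.16) markers. Its Apcdd1 value of 8.74 was the lowest of the 3 TRIM33 arrays there, by little, beside 8.82 and 8.87. WT arrays of that set gave no single pattern: WT replicate 4, lowest in Apcdd1 at 5.07, had their lowest cell cycle mean (4.93) and their highest progenitor mean (4.77). The part of these markers in the gap between sets was not tested.

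**Figure D1:**
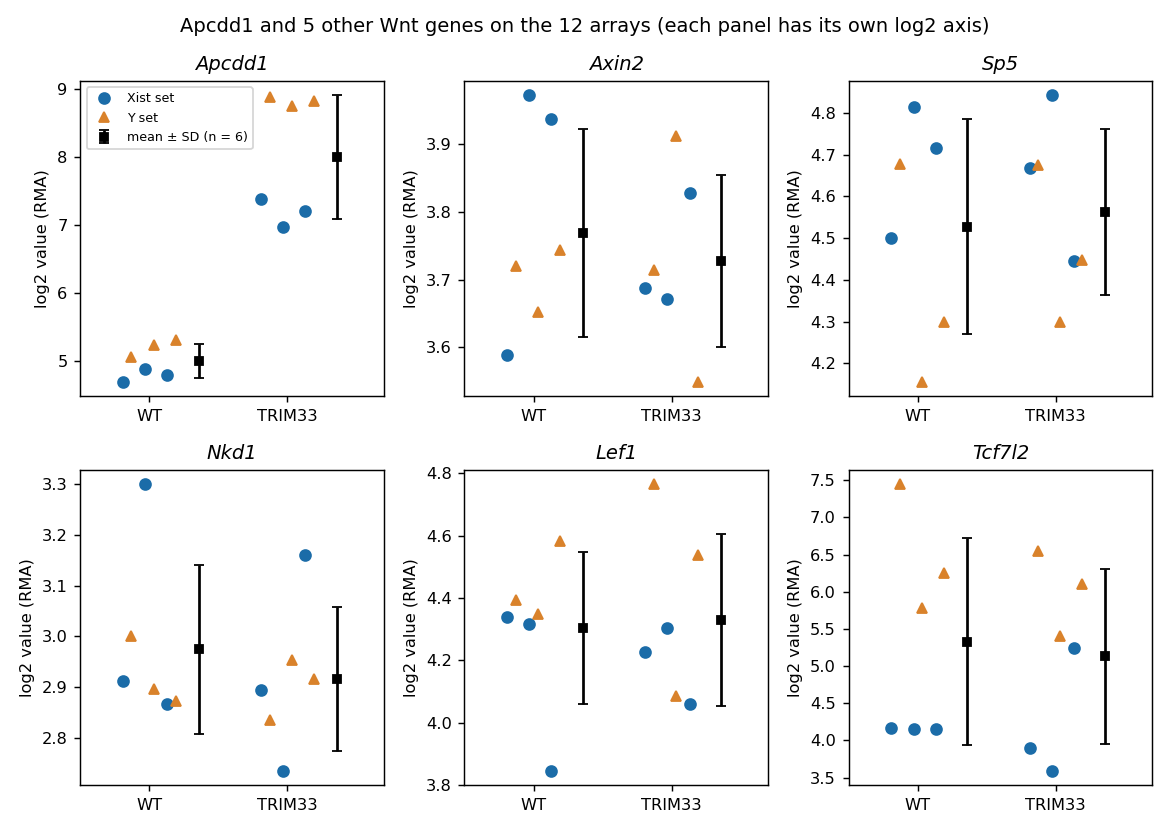
Log2 values of Apcdd1, Axin2, Sp5, Nkd1, Lef1 and Tcf7l2 on the 12 arrays, by genotype, with circles for the Xist set, triangles for the Y set and black squares for the mean ± SD of 6 arrays; each panel has its own axis. Apcdd1 parts the genotypes (4.70 to 5.31 against 6.96 to 8.87), Tcf7l2 parts the array sets, and the genotypes overlap in the other panels.

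None of the 6 genes beside Apcdd1 on its chromosome passed the test between genotypes, as only 0.0215% of all genes did. In the RefSeq gene order of assembly GRCm38.p6 the nearest named protein-coding genes on one side are Napg, which encodes a SNAP protein of membrane fusion, the mechanically gated channel gene Piezo2 and Txnl1, and on the other side Spink13, Spink7 and Spink10, protease inhibitor genes. Napg, the next gene, read 6.91 to 7.16 in WT and 6.70 to 7.36 in TRIM33 arrays, a difference of 0.02 on the log2 scale (SE 0.102). Of the 6, Spink13 differed most, by 0.29 (SE 0.141), with the WT mean exceeded on 5 of 6 TRIM33 arrays. The other differences lay between -0.06 and 0.12. Spink13, Spink10, Piezo2 and Spink7 had means of at most 3.79 in either genotype, below the array medians of 4.16 to 4.25. The lack of a call says little about such dim genes. Each of the 6 had a limma adjusted p of 1.

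Apart from Apcdd1, 0 of the 37 measured Wnt genes passed the genotype comparison (limma, Benjamini-Hochberg adjusted p under 0.05 over all genes), where 0.0215% of all genes did, 0.0172% higher and 0.00430% lower. With the array set as a block 0 passed too, against 0.0387% of all genes, and the smallest adjusted p was 0.721. Their differences lay between -0.29 and 0.24 on the log2 scale, with 15 above and 22 below 0. That is 59.5% below 0, beside 55% of all genes, and the median was -0.05 beside -0.01 for all genes. An unadjusted p under 0.05 was found for 3 of the 37, which is 8.11% beside 3.07% of all genes, and for 4 with the block, which is 10.8% beside 5.28%. Not one of the 37 parted the genotypes on all 12 arrays, as 0.198% of all genes did. A p above the threshold does not show equal levels: with the block the 95% intervals of the 37 reached down to -0.85, for Tcf7l2, and up to 0.52, for Ryk. Without Tcf7l2 their lower end was -0.61.

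**Figure D2:**
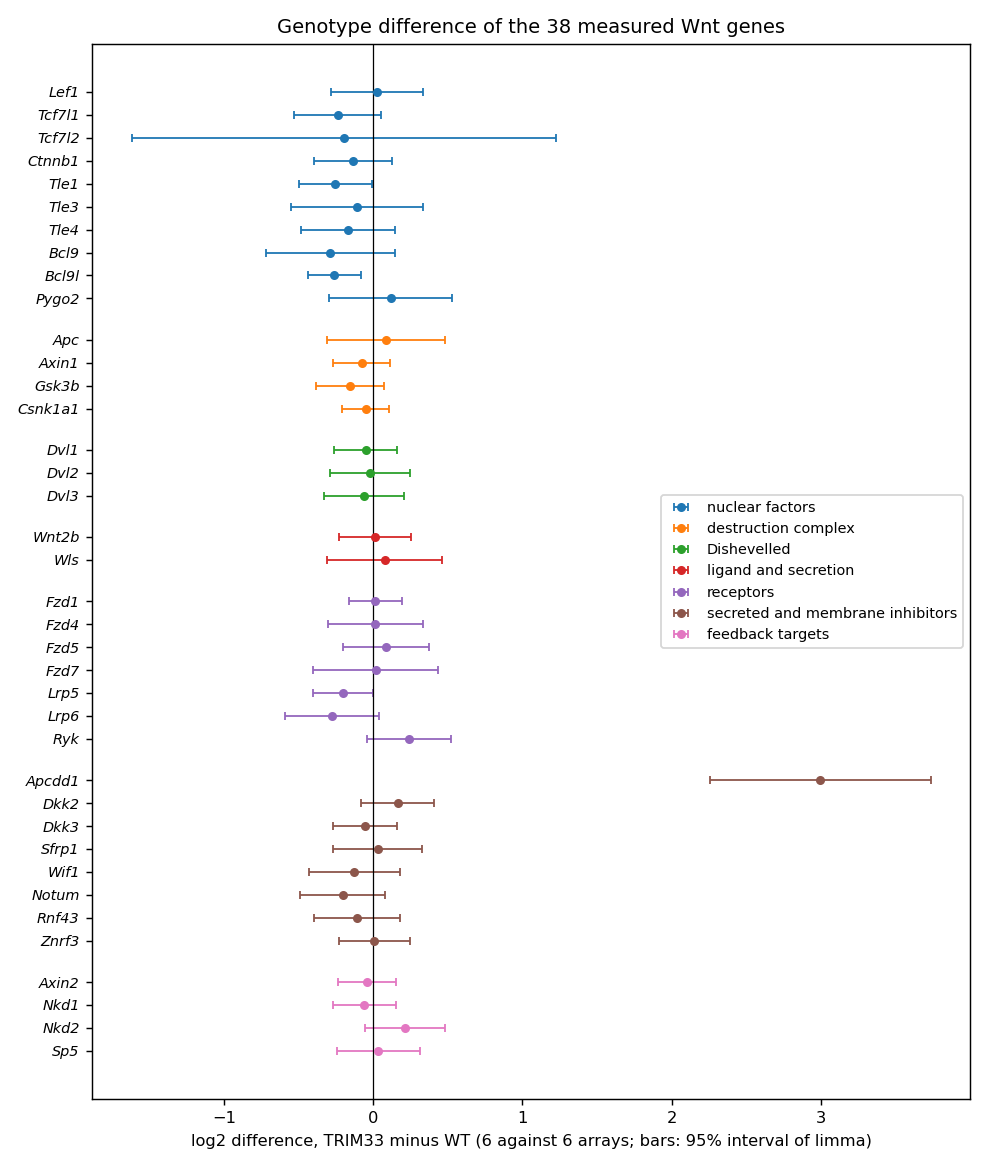
Log2 difference between 6 TRIM33 and 6 WT arrays for the 38 measured Wnt genes, in colours by role, with 95% intervals of the limma fit without a block. Apcdd1 stands at 2.99 and the other 37 genes lie between -0.29 and 0.24, with the widest interval for Tcf7l2.

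The genes that Wnt signalling is known to switch on gave the nearest reading of the pathway's output, but a weak one. Of the 8 among the 37 genes, none lay above the median of all features on every array. A flat reading of such dim genes says little about output. Axin2, a scaffold of the destruction complex that is induced almost wherever beta-catenin is active, read 3.59 to 3.97 with a median of 3.73 in WT arrays and 3.55 to 3.91 with a median of 3.70 in TRIM33 arrays. The ranges overlapped almost wholly. The difference was -0.04 on the log2 scale (SE 0.091, 95% interval -0.24 to 0.15), with 4 of 6 TRIM33 arrays below the WT mean and a limma adjusted p of 1. Sp5, a zinc finger factor induced by beta-catenin, read 4.16 to 4.81 in WT and 4.30 to 4.84 in TRIM33 arrays and differed by 0.04 (SE 0.130).

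The naked cuticle genes, whose proteins bind Dishevelled and damp the signal, are also feedback targets. Nkd1 read 2.87 to 3.30 in WT and 2.74 to 3.16 in TRIM33 arrays, a difference of -0.06 on the log2 scale (SE 0.097). Nkd2 read 3.15 to 3.84 and 3.34 to 3.84, a difference of 0.21 (SE 0.123), with the WT mean exceeded on 5 of 6 TRIM33 arrays and adjusted p of 1 in limma (0.937 with the block). Its 95% interval ran from -0.06 to 0.48. Axin2, Nkd1 and Nkd2 lay below the median of all features on all 12 arrays, as did Ryk, Dkk2, Sfrp1 and Notum, and RMA compresses differences between such dim features. Of the 38 genes 23 lay above that median on every array, Apcdd1 among them but none of the other target genes named here.

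TCF and LEF factors bind a motif with the core CTTTGA, or TCAAAG on the other strand. The 250 bases before the start of transcription were searched in the RefSeq promoter table of build GRCm38.p6, which holds 28 of the 39 listed genes. Apcdd1 is not among the 28, so its promoter was not searched. The core was found in 4 of their 38 windows, which is 10.5%, beside 13.8% of all 32851 windows. The other genes with a match were Fzd1 and Gsk3b. Sp5 and Lef1 are shown because they are target genes whose window holds the core at 2 places, marked in capitals. Sp5 lies on chr2:70474673-70474922 and the Lef1 window, one of 4 in the table, on chr3:131156044-131156293, both on the plus strand and written 5′ to 3′.
Sp5: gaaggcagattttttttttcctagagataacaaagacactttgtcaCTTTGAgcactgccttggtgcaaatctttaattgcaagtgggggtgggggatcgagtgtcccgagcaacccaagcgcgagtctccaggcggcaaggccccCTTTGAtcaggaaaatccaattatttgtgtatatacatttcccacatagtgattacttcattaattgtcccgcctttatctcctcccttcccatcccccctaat
Lef1: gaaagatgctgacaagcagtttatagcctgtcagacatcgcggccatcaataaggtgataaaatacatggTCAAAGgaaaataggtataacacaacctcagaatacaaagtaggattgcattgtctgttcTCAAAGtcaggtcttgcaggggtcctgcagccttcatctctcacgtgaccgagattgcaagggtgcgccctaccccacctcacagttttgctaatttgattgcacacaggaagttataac
Counted from the start of transcription, the cores begin at -204 and -104 in Sp5 and at -180 and -120 in Lef1. A match describes these letters only and is not evidence of binding.

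None of the 7 other secreted and membrane inhibitors passed the test. Notum, an enzyme that strips the lipid from Wnt, read 3.04 to 3.78 in WT and 2.95 to 3.46 in TRIM33 arrays and differed by -0.20 on the log2 scale (SE 0.132). Rnf43 and Znrf3, ubiquitin ligases that remove Frizzled from the surface and are target genes too, differed by -0.11 (SE 0.133) and 0.01 (SE 0.110). Among inhibitors that act outside the cell, Dkk2, which binds LRP5 and LRP6, differed by 0.16, the family member Dkk3 by -0.06 (SE 0.099), Sfrp1, a decoy with a Frizzled-like domain, by 0.03, and Wif1, which binds Wnt, by -0.13. Beside Apcdd1, 3 of the 7 inhibitors were above 0 and 4 below, and limma called 0 of them.

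Of the 7 receptors and co-receptors 5 lay above 0 and 2 below, with a median of 0.01 on the log2 scale, and limma called 0 of them. The 2 below 0 were the co-receptors Lrp5 and Lrp6. Lrp5 read 7.20 to 7.56 with a median of 7.39 in WT and 7.04 to 7.38 with a median of 7.14 in TRIM33 arrays. The ranges overlapped, and 6 of 6 TRIM33 arrays lay below the WT mean. Its difference was -0.20 on the log2 scale (SE 0.092), with an unadjusted p of 0.0463 in limma and an adjusted p of 1. Lrp6, the closely related co-receptor, read 6.33 to 7.09 and 6.06 to 6.71, with 5 of 6 TRIM33 arrays below the WT mean. It differed by -0.27 (SE 0.145, unadjusted p 0.0817 in limma). With the array set as a block the SE was 0.099, and limma gave an unadjusted p of 0.0148 and an adjusted p of 0.829. The difference of Lrp6 was -0.25 in the Xist set and -0.30 in the Y set.

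The Frizzled receptors Fzd1, Fzd4, Fzd5 and Fzd7 differed by 0.01 to 0.08 on the log2 scale. Ryk, a receptor that binds Wnt and lacks kinase activity, had the highest difference of the 37 genes, 0.24 (SE 0.130), with a limma adjusted p of 1 and 5 of 6 TRIM33 arrays above the WT mean. On the side of the ligand, Wnt2b read 4.29 to 4.59 in WT and 3.97 to 4.66 in TRIM33 arrays and differed by 0.01 (SE 0.111). Wls, which carries Wnt proteins to the cell surface, differed by 0.08 (SE 0.178) and followed the array set instead. It read 8.25 to 8.53 on the Xist set arrays and 7.67 to 7.90 on the Y set arrays.

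Beta-catenin itself and the machinery that controls it showed small differences. Ctnnb1, its gene, read 8.08 to 8.52 with a median of 8.37 in WT and 7.75 to 8.44 with a median of 8.30 in TRIM33 arrays. It differed by -0.13 on the log2 scale (SE 0.120, 95% interval -0.39 to 0.13). The level of this transcript does not report the amount of beta-catenin protein, which the pathway controls by destruction. In the destruction complex the kinase gene Gsk3b differed by -0.15 (SE 0.106), the scaffold gene Axin1 by -0.08 (SE 0.087), the casein kinase gene Csnk1a1 by -0.05 and Apc by 0.08, and limma called 0 of the 4. The Dishevelled genes Dvl1, Dvl2 and Dvl3 lay at -0.05, -0.02 and -0.06. Dvl1 differed by 0.15 in the Xist set and by -0.25 in the Y set, with an unadjusted p of 0.0342 for the gap between sets in limma and an adjusted p of 0.996.

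Among nuclear factors 8 of 10 lay below 0, which is 80% beside 55% of all genes, and limma called 0 of them. Their median was -0.18 on the log2 scale beside -0.01 over all genes, but 0.01 in the Xist set and -0.16 in the Y set. Bcl9l, a coactivator that binds beta-catenin, had the smallest p of the 37 genes. It read 5.09, 5.36, 5.20, 5.34, 5.29 and 5.06 on WT replicates 1 to 6, and 4.99, 5.07, 5.06, 4.82, 4.98 and 4.84 on TRIM33 replicates 1 to 6. All 6 TRIM33 arrays lay below the WT mean, and of them TRIM33 replicates 2 and 3 lay just above the lowest WT array. The difference was -0.26 (SE 0.082, 95% interval -0.44 to -0.08), with an unadjusted p of 0.00727 in limma and an adjusted p of 1 (0.721 with the block).

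Its partner genes did not give one pattern. Bcl9, the related coactivator, differed by -0.29 on the log2 scale (SE 0.199): by -0.58 in the Xist set and by 0.0030 in the Y set. Pygo2, which joins Bcl9 proteins to chromatin, differed by 0.12 (SE 0.191). The Groucho corepressors, which keep TCF targets silent without beta-catenin, lay at -0.25 for Tle1 (SE 0.114, unadjusted p 0.0454 in limma and adjusted p of 1), -0.11 for Tle3 and -0.17 for Tle4. Tle1 read 5.23 to 5.63 in WT and 4.86 to 5.44 in TRIM33 arrays, so the genotypes overlapped.

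Of the TCF and LEF factors, Lef1 read 3.85 to 4.58 with a median of 4.34 in WT and 4.06 to 4.77 with a median of 4.27 in TRIM33 arrays, a difference of 0.03 on the log2 scale (SE 0.143). Tcf7l1, mostly a repressor, read 3.69 to 4.56 and 3.56 to 3.92 and differed by -0.24 (SE 0.135), with 6 of 6 TRIM33 arrays below the WT mean. Tcf7l2 varied most of the 37 genes, and by array set. In the Xist set the WT arrays read 4.16, 4.15 and 4.15 and the TRIM33 arrays 3.90, 3.59 and 5.24. In the Y set the WT arrays read 7.45, 5.78 and 6.26 and the TRIM33 arrays 6.55, 5.41 and 6.10. Every Y set array lay above every Xist set array, and the genotypes overlapped within each set. The genotype difference of Tcf7l2 was -0.19 (SE 0.657, and 0.308 with the block), while the Y set mean lay 2.06 above the Xist set mean.

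The array sets parted 5 of the 37 genes on all arrays, which is 13.5% beside 14.0% of all genes. Tcf7l2, Tle3, Gsk3b and Dvl3 were higher in the Y set, and Wls was lower there. Tle3 read 8.94 to 9.47 in the Y set and 8.38 to 8.80 in the Xist set. Because the sets were found by clustering these same arrays, their values are a description. The sets differ together in sex-linked genes and in the list means of cell cycle, progenitor, neutrophil, platelet, T cell and monocyte markers. They also differ in preparation, since all 4 mixes are in the Y set, and the part of each cannot be told apart.

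**Figure D3:**
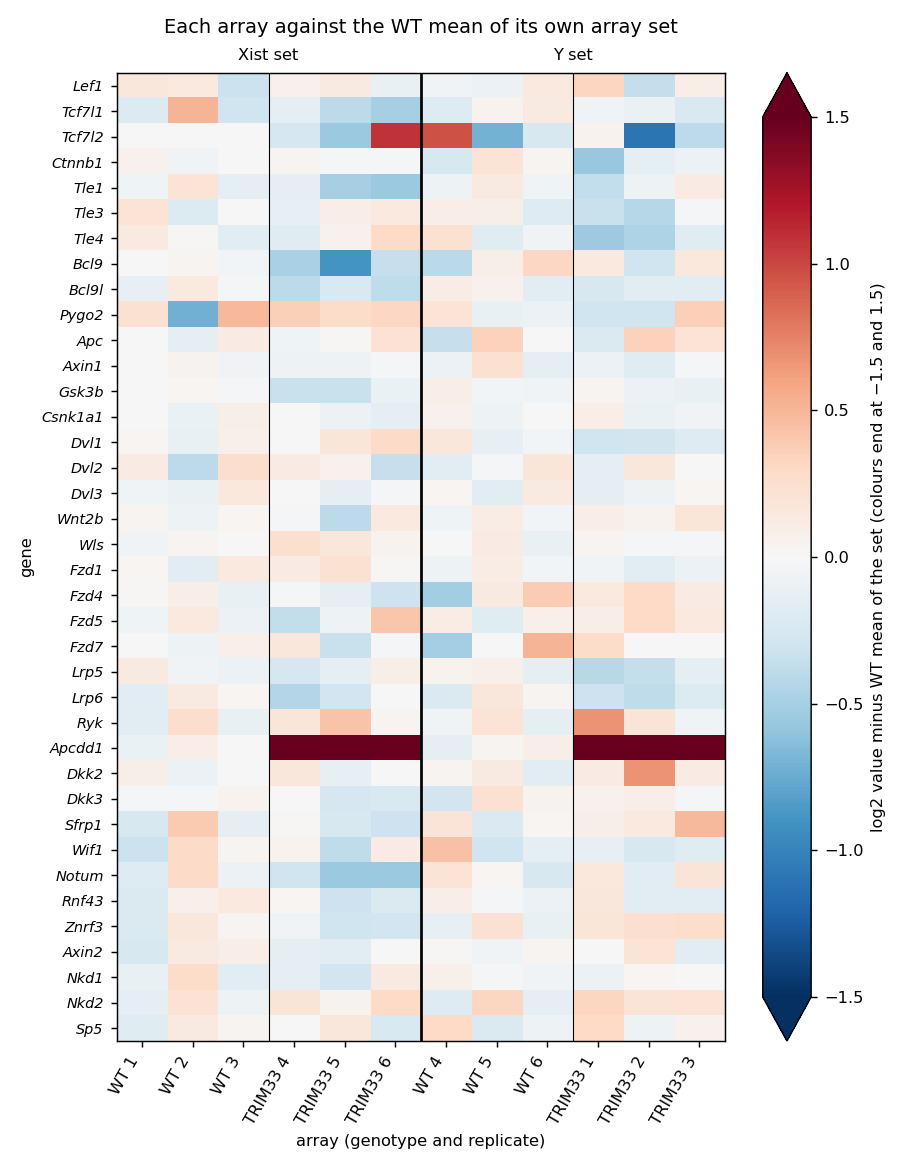
Log2 value of each of the 38 genes on each array minus the WT mean of the same array set, with red above and blue below that mean. Apcdd1 is at the end of the colour scale on all 6 TRIM33 arrays, and Tcf7l2 varies between arrays of the same genotype and set.

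Within the array sets, 3 arrays against 3, limma called 0 of the 37 genes other than Apcdd1, where 0.0129% of all genes passed in the Xist set and 0.0344% in the Y set. In the Xist set 6 of the 37 did not overlap between genotypes, which is 16.2% beside 10.3% of all genes: Wls was higher, and Tle1, Bcl9, Bcl9l, Gsk3b and Notum lower. In the Y set 2 did not, which is 5.41% beside 10.0% of all genes, and these were Dvl1 and Lrp5, both lower. None of the 37 was in both, and the share of all genes in both was not counted. With the mixes left out, 4 arrays against 4, Bcl9l alone of the 37 did not overlap, which is 2.7% beside 1.91% of all genes. All mixes lay in the Y set, so the arrays left were mostly of the Xist set. The interaction of genotype and set had an unadjusted p under 0.05 for 3 of the 37 genes other than Apcdd1, which is 8.11% beside 4.21% of all genes, and no adjusted p under 0.05 by limma. These were Dvl1, Notum and Znrf3.

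**Figure D4:**
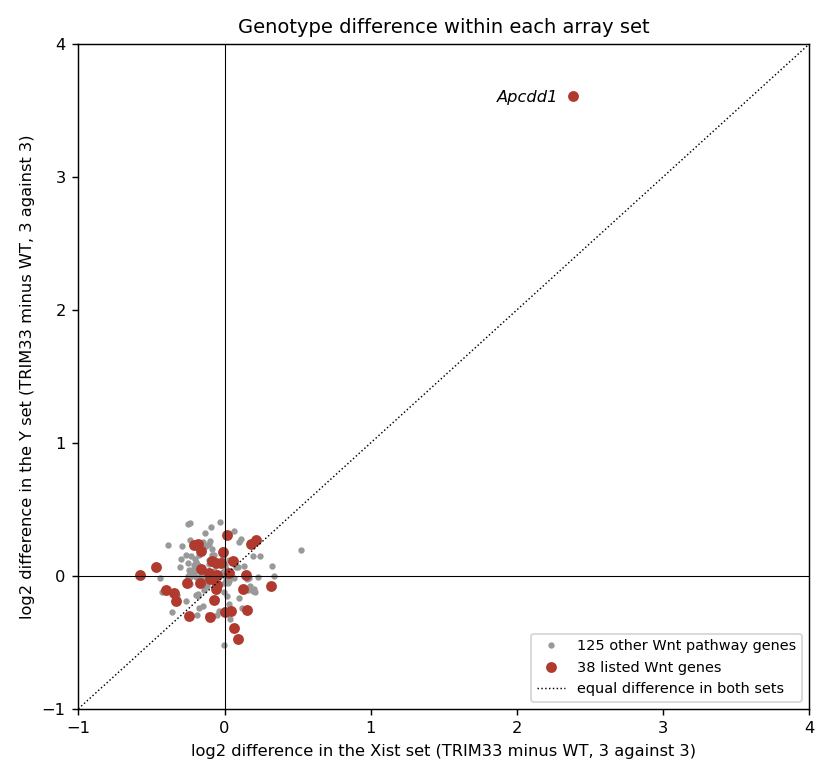
Log2 difference between TRIM33 and WT in the Xist set (horizontal) and in the Y set (vertical), 3 arrays against 3 in each, for the 38 listed Wnt genes (red) and 125 other Wnt pathway genes (grey). Apcdd1 lies at 2.38 and 3.61, above the dotted line of equal difference, and the other listed genes lie between -0.58 and 0.31 in the Xist set and between -0.48 and 0.31 in the Y set.

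The rest of the pathway was read from further lists of 127 genes, of which 125 were measured. Limma called 0 of the 125 without the block and 0 with it, against 0.0215% and 0.0387% of all genes. Their median difference was -0.03 on the log2 scale beside -0.01 for all genes, with 48 above and 77 below 0, and an unadjusted p under 0.05 was found for 2 of them, which is 1.6% beside 3.07%. No gene of these lists parted the genotypes, as only 0.198% of all genes did. Their differences lay between -0.31 and 0.36.

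The 19 genes for ligands and their acylation enzyme Porcn lay between -0.20 and 0.14 on the log2 scale, with Wnt5b at -0.20 (SE 0.140) and Wnt2 at -0.13 (SE 0.112) having the smallest p. Among the 16 receptors, R-spondins and their receptors, Ror1, a receptor for Wnt5a, differed by -0.23 (SE 0.110) and the stem cell marker Lgr5 by -0.19 (SE 0.110). Of 16 further inhibitors, Sfrp4, a secreted Frizzled-related protein, differed by -0.31 (SE 0.110, unadjusted p 0.0134 in limma and adjusted p of 1) and Sostdc1, an inhibitor of BMP and Wnt, by 0.19 (SE 0.087, unadjusted p 0.0445 in limma). The inhibitor Dkk1, a target gene in many tissues, lay at -0.06.

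Among 20 cascade genes Frat2, which binds GSK3, differed by -0.24 on the log2 scale (SE 0.128) and Gsk3a by -0.15 (SE 0.090). Of 16 nuclear genes Hdac1 differed by 0.19 (SE 0.168) and Smarca4 by -0.11 (SE 0.099). The 22 genes of the planar polarity and calcium branches had Camk2a at -0.28 (SE 0.184) and Nlk, a kinase that acts on TCF proteins, at -0.12 (SE 0.101). Of 16 target genes 8 lay above 0 and 8 below, with a median of -0.01. Cdx2 differed by -0.17 (SE 0.105) and Mmp7 by 0.18 (SE 0.123). The widely used targets Myc and Ccnd1, named after their values were seen, differed by 0.05 (SE 0.443) and 0.04 (SE 0.158). Myc read 6.90 to 7.30 on the Xist set arrays, against 5.15 to 6.12 on those of the Y set.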

How the data were processed

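RNA of sorted blood monocytes was amplified from 900 pg and hybridised to single-colour arrays, per the labels' protocols. The authors deposited log2 values of 24479 features made with RMA, and RMA and Partek are named in the submitters' processing notes. The sources used here give no version, chip definition, genome build or batch correction. The labels conflict in one place, where a treatment field speaks of sorted CD4 T cells, but monocytes are named as the source and in the design. Arrays give no read depth, so their number limits the precision.

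The 23281 features with 1 gene symbol gave 23279 genes, the brightest feature standing for each symbol, and 1198 features had no symbol. Array medians were 4.16 to 4.25. Genotypes were compared with limma 3.58.1 in R 4.3.3 (lmFit and eBayes, genotype alone, 6 arrays against 6), with Benjamini-Hochberg adjustment over all genes at 0.05, and again with the array set as a block. The sets came from average-linkage clustering of 1 minus r, without genotype. The r of 2 arrays was 0.986 to 0.992 in the same set and otherwise 0.955 to 0.967. The code was tested on simulated data. The members and all lists were chosen with earlier results of these data known. Named genes were a fixed set of pathway genes, those past the threshold, those whose genotypes do not overlap, listed genes whose array sets differ by more than 1, and those of smallest p in each role; other listed genes are given for their role. The other values of scaling, filters, weights, preparation and left-out arrays are given with the closing observations.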

Additional observations from a re-analysis of the deposited data

Results flagged for a closer look

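In 118 groups of 6 arrays, 8 had an array that lay far from the others, where chance gives about 1 in 20 for values of a single normal population. Each group here joins 3 arrays of each array set, and the groups share the same arrays, so that rate need not hold. The value given is the gap to the nearest array as a share of the group's range. Lef1 in WT arrays had a share of 0.64, with WT replicate 3 at 3.85 and the others at 4.32 to 4.58. Pygo2 had 0.725 in WT arrays, with WT replicate 2 at 4.80 and the others at 5.67 to 6.01. Axin1 had 0.699, with WT replicate 5 at 6.81 and the other WT arrays at 6.36 to 6.49. Nkd1 had 0.69, with WT replicate 2 at 3.30 and the other WT arrays at 2.87 to 3.001. Smarca4 had 0.631, with WT replicate 4 at 8.29 and the other WT arrays at 8.44 to 8.53. Camk2a had 0.736 in TRIM33 arrays, with TRIM33 replicate 1 at 4.66 and the others at 3.56 to 3.85. Lgr5 had 0.754, with WT replicate 4 at 3.72 and the other WT arrays at 3.06 to 3.22. Cdx2 had 0.698, with WT replicate 6 at 4.44 and the other WT arrays at 4.16 to 4.25.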

How the results depend on the processing

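Apcdd1, chosen on this comparison, differed by 2.38 to 3.61 on the log2 scale over the alternatives run, and by 2.82 to 3.20 when each array was left out in turn, which describes the same arrays and is no test. With the mixes, all of the Y set, left out its difference was 2.74. No other listed Wnt gene and none of the 125 further ones passed under any alternative run.

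Beside 5 genes in all, limma called 9 with the array set as a block, 3 within the Xist set, 8 within the Y set and 0 among arrays not titled as mixes (565 at an unadjusted p under 0.05). Without moderation the linear model called 3. Of the listed genes 0 were called without moderation and 0 among arrays not titled as mixes, against 1, Apcdd1, over all arrays. Leaving out each array in turn gave 5 to 9 genes, with 9 without TRIM33 replicate 4. With the block, leaving out each array gave 9, 10 or 12 genes, and 15 without TRIM33 replicate 4. The mix numbers are shared by both genotypes, and with them as a replicate block limma called 6 genes. The number alone does not show that these mixes are paired.

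The listed genes without overlap, Apcdd1 included, were 7 in the Xist set, which is 18.4% beside 10.3% of all genes. They were 2 in the Y set (5.41% beside 10.0%) and 1 among arrays not titled as mixes (2.7% beside 1.91%). With Apcdd1 counted, they were 2 with arrays centred on their medians, and 1 to 2 on leaving out arrays (2 without WT replicate 6). For these last settings the share over all genes was not counted. The median of the 125 further genes was -0.092 in the Xist set. Signs were followed over the alternatives only for the genes named by the rule given above. Other listed genes turned within a set too, such as Tle4 (0.062 in the Xist set) and Bcl9 (0.0030 in the Y set). Signs of named genes that passed in no fit turned as follows, and the cause was not tested. In the Xist set Tcf7l2 was 0.091, Dvl1 0.15, Wnt2b -0.089 and Hdac1 -0.032. In the Y set Axin2 was 0.020, Notum 0.063 and Wnt2 0.0012. Among arrays not titled as mixes Wnt2b was -0.025. On leaving out arrays Lef1 ran from -0.067 to 0.081, Tcf7l2 from -0.48 to 0.23, Dvl1 from -0.10 to 0.0095, Dvl3 from -0.11 to 0.0035, Nkd1 from -0.11 to 0.0061, Wls from -0.0068 to 0.15 and Wnt2b from -0.033 to 0.11. With the block as well, Lef1 was -0.042 without TRIM33 replicate 1 and -0.047 without WT replicate 3, Nkd1 0.0061 without WT replicate 2, and Tcf7l2 0.050 and Dvl1 0.010 without WT replicate 4. Wnt2b was then -0.014, -0.030, -0.013 and -0.0084 without TRIM33 replicates 3 and 6 and WT replicates 4 and 6.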
